A study of Mus musculus with 12 samples.

Results

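The 7 caspase genes Casp1, Casp2, Casp4, Casp6, Casp8, Casp9 and Casp12 were followed in peritoneal exudate cells, the mixed cells washed out of the abdominal cavity, by taking every non-control probe whose gene name in the array files was one of them. This gave 7 probes of 41174, 1 for each gene. RNA of these bulk cells was hybridised to 12 single-colour mouse arrays. The mice were females of 8 weeks on a background labelled 129S2/SvPas*BALB/c, killed 3 hours after an injection into the abdominal cavity. There were 4 groups of 3 arrays, each array from different mice: Ifnar2-/- mice given interferon beta (IFN-β), Ifnar2-/- mice given phosphate-buffered saline (PBS), wild-type mice given IFN-β, and wild-type mice given PBS. The labels state IFN-β as 10000 IU/ml with no volume. The sources used here do not say how the Ifnar2 allele was made.

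Caspases are cysteine proteases that cut other proteins after aspartate. The inflammatory ones, on inflammasomes or after sensing bacterial lipopolysaccharide, cut gasdermin D and interleukin precursors and bring on the lytic death called pyroptosis, a response for which macrophages are well known. The apoptotic ones work as a cascade in which initiators, switched on by death receptors, by cytochrome c released from mitochondria or by other platforms, activate executioners. Type I interferon acts through a receptor of the subunits Ifnar1 and Ifnar2, and the study set the response of cells without Ifnar2 beside that of wild-type cells. The arrays measure RNA, not cleaved or active protease.

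All 7 probes passed the filter on dim probes, none was saturated on any array, and none of their spots was marked as an outlier. For 6 of them the spot was well above background on all 12 arrays. Casp12 was well above background on 7 of 12, namely 0 of 3 Ifnar2-/- IFN-β arrays, 1 of 3 Ifnar2-/- PBS arrays, 3 of 3 wild-type IFN-β arrays and 3 of 3 wild-type PBS arrays. On the 4 arrays of slide 3, which held Ifnar2-/- samples alone, 59.4% to 62.5% of spots were well above background, against 65.2% to 71.6% on the other slides. The targeted gene had 2 probes, which disagreed: after PBS one read -1.85 ± 0.14 (log2 fold change of Ifnar2-/- against wild-type cells with its SE, adjusted p = 5.67e-05), and the other 0.96 ± 0.18 (adjusted p = 0.0152). The sources used here do not say whether either lies in the deleted part, so these probes check the genotype labels only in part.

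The probes lie, in the positions the array files give for the mouse build mm7, at chr9:5223467-5223969 for Casp1, chr9:5253886-5253945 for Casp4, chr9:5289499-5289558 for Casp12, chr1:59095846-59095905 for Casp8, chr4:141194312-141194371 for Casp9, chr6:42225350-42225409 for Casp2 and chr3:129752889-129752948 for Casp6. Exon and UTR annotation of that build was not used here. The Casp1 probe spans 503 bases for its 60-base sequence, so its sequence is not contiguous in the genome. In gene order of the RefSeq assembly GRCm38.p6, Casp1, Casp4 and Casp12 are consecutive coding genes on chromosome 9. Each of the 7 probes has a sequence that no other probe on the array carries. Binding to similar sequences was not checked. The probes of an inflammatory and an apoptotic gene with large changes are shown in lower case, 5′ to 3′, as the sequences behind their values.
Casp1 probe: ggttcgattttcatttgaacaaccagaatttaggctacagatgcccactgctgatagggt
Casp8 probe: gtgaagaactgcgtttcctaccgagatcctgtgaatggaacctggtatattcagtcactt

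The 3 inflammatory genes sit side by side and moved together in wild-type cells, so the 300 bases around each start (250 before, 50 after) were read from RefSeq on GRCm38.p6, all on the plus strand: chr9:5298267-5298566 for Casp1, chr9:5308599-5308898 for Casp4 (the first of 2 annotated starts) and chr9:5345226-5345525 for Casp12. Capitals mark matches to the motif GAS, the letters TTCNNNGAA bound by STAT dimers.
Casp1 promoter: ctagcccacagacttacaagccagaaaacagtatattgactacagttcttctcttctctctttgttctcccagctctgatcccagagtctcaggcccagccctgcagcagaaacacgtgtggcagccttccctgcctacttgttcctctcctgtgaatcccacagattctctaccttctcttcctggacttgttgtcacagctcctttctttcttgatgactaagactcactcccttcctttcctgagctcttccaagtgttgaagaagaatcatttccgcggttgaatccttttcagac
Casp4 promoter: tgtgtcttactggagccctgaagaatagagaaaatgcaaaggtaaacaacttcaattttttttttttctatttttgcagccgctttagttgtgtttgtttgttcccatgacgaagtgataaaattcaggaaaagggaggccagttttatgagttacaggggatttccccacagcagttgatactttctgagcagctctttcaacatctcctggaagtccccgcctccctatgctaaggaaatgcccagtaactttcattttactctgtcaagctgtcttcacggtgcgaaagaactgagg
Casp12 promoter: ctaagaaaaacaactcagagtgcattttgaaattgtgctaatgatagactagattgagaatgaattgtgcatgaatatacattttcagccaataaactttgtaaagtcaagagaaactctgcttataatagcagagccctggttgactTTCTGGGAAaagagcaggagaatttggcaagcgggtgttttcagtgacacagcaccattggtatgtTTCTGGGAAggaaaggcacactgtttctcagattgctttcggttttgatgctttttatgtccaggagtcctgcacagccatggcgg
Both strands were searched. The GAS letters occurred in 1 of 8 windows of the 7 genes, that of Casp12, which held TTCTGGGAA at 2 places, starting 102 and 36 bases before the start site. Of 32851 promoter windows of the same length, 8.30% held these letters. The letters TTTCNNTTTC, the core of the interferon-stimulated response element ISRE, occurred in 0 of 8 windows and in 3.44% of the 32851. A match is a description of the letters in these windows.

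After IFN-β, 2 of 7 caspase genes passed the test in Ifnar2-/- cells and 7 of 7 passed it in wild-type cells. In Ifnar2-/- cells Casp4 rose and Casp2 fell. In wild-type cells Casp1, Casp4, Casp12, Casp8 and Casp2 rose, and Casp9 and Casp6 fell. The test was limma with an adjusted p under 0.05 over 18274 genes. By the same rule 1.17% of all genes passed in Ifnar2-/- cells (0.963% higher, 0.208% lower) and 39.4% in wild-type cells (17.5% higher, 21.9% lower). Within Ifnar2-/- cells 3 of the 7 had an unadjusted p under 0.05. Here and below, the share of all genes with an unadjusted p under 0.05 was not computed. Such counts therefore cannot be set against the general rate. The count of 2 there was not stable: leaving out any single array gave 0 or 1, and the fit with the replicate number as a block gave 1. The 214 genes behind the share of 1.17% became 32 to 300 without single arrays and 140 with that block. The difference between the responses, that in Ifnar2-/- cells minus that in wild-type cells, passed for 7 of 7 genes (6 with the replicate block), 2 higher and 5 lower, against 17.9% of all genes (8.79% higher, 9.06% lower). On the scaled values the IFN-β and PBS arrays did not overlap for 5 of 7 genes in Ifnar2-/- cells, against 23.5% of all genes, and for 7 of 7 in wild-type cells, against 53.7%. Values below are the processed signal of the scanner software in arbitrary units, and fold changes are log2 differences after each array was divided by its 75th percentile signal, with the SE of the fit.

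Casp1 encodes the inflammasome protease that matures Il1b and Il18 and cuts gasdermin D. Its signal was 12629, 11509 and 8972 on the Ifnar2-/- IFN-β arrays, against 9031, 10779.6 and 10612 on the Ifnar2-/- PBS arrays. In wild-type cells it was 48401, 43010.1 and 47421 after IFN-β, against 8635, 10829.7 and 12138 after PBS. All 3 wild-type IFN-β arrays stood far above the other 9 arrays, which overlapped across their 3 groups. The log2 fold change was 0.00 ± 0.17 in Ifnar2-/- cells (adjusted p = 0.999, 95% interval -0.38 to 0.38), against 2.31 ± 0.17 in wild-type cells (adjusted p = 3.13e-06), a 4.96-fold rise. The difference between those responses was -2.31 ± 0.24 (adjusted p = 0.000101).

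Casp4 encodes the mouse protease that senses lipopolysaccharide in the cytosol and starts the non-canonical inflammasome. Its signal was 11859, 15366 and 13628 in Ifnar2-/- cells given IFN-β, against 6633, 7235 and 8010.1 in Ifnar2-/- cells given PBS. Wild-type cells gave 51168, 44461 and 49664 after IFN-β, against 7883, 8250.2 and 11136 after PBS. The IFN-β arrays lay above the PBS arrays without overlap in both genotypes. Casp4 rose by 0.79 ± 0.13 in Ifnar2-/- cells (adjusted p = 0.0223), which is 1.72-fold, and by 2.59 ± 0.13 in wild-type cells (adjusted p = 2.07e-07), which is 6.03-fold. Between the genotypes the responses differed by -1.81 ± 0.19 (adjusted p = 9.42e-05). On the scaled values the 4 groups formed an order with no overlap between neighbours: wild type with IFN-β highest, then Ifnar2-/- with IFN-β, wild type with PBS, and Ifnar2-/- with PBS. The rise in Ifnar2-/- cells was 0.69 within slide 2 and 0.83 within slide 3. Its direction held under all 25 alternatives, but it no longer passed the test under 9 of them, such as with slide as a fixed block (0.79, adjusted p = 0.0573) and without the 2 arrays of highest neutrophil marker signal (0.82, adjusted p = 0.0682).

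Casp12 belongs by sequence with the inflammatory caspases and has been linked in mouse to stress of the endoplasmic reticulum. Its probe was dim, at 10.8, 19.0 and 13.5 on the Ifnar2-/- IFN-β arrays, against 22.0, 15.9 and 13.9 on the Ifnar2-/- PBS arrays. The wild-type arrays read 141, 125 and 182 after IFN-β, against 19.1, 18.8 and 12.5 after PBS. Wild-type cells given IFN-β were clearly brighter than the rest, and the other 3 groups overlapped near background. Casp12 rose by 3.32 ± 0.30 in wild-type cells (adjusted p = 1.48e-05), a 10.01-fold rise as analysed. That size depends on the background correction: with normexp it was 1.41 and still passed the test. The Ifnar2-/- IFN-β group was not well above background, with a measured mean of -6.03 on the scaled log2 values. Wild-type cells given IFN-β had a mean of -2.26. Each dim array was then set to the higher of its own value and the lowest signal well above background on that array. On that footing wild-type cells were 10.2-fold higher on the processed signal. This is no lower bound under other background corrections, since normexp gave smaller changes for Casp12. No fold is given for IFN-β against PBS in Ifnar2-/- cells, where the test did not pass (adjusted p = 0.545). The fitted difference between the responses was -3.70 ± 0.43 (adjusted p = 0.00021) and rests on values at background on the Ifnar2-/- side, so it gives no measured size: over the alternatives it ran from -4.50 to -1.53, with -1.53 from normexp, and it passed in all 23.

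**Figure D1:**
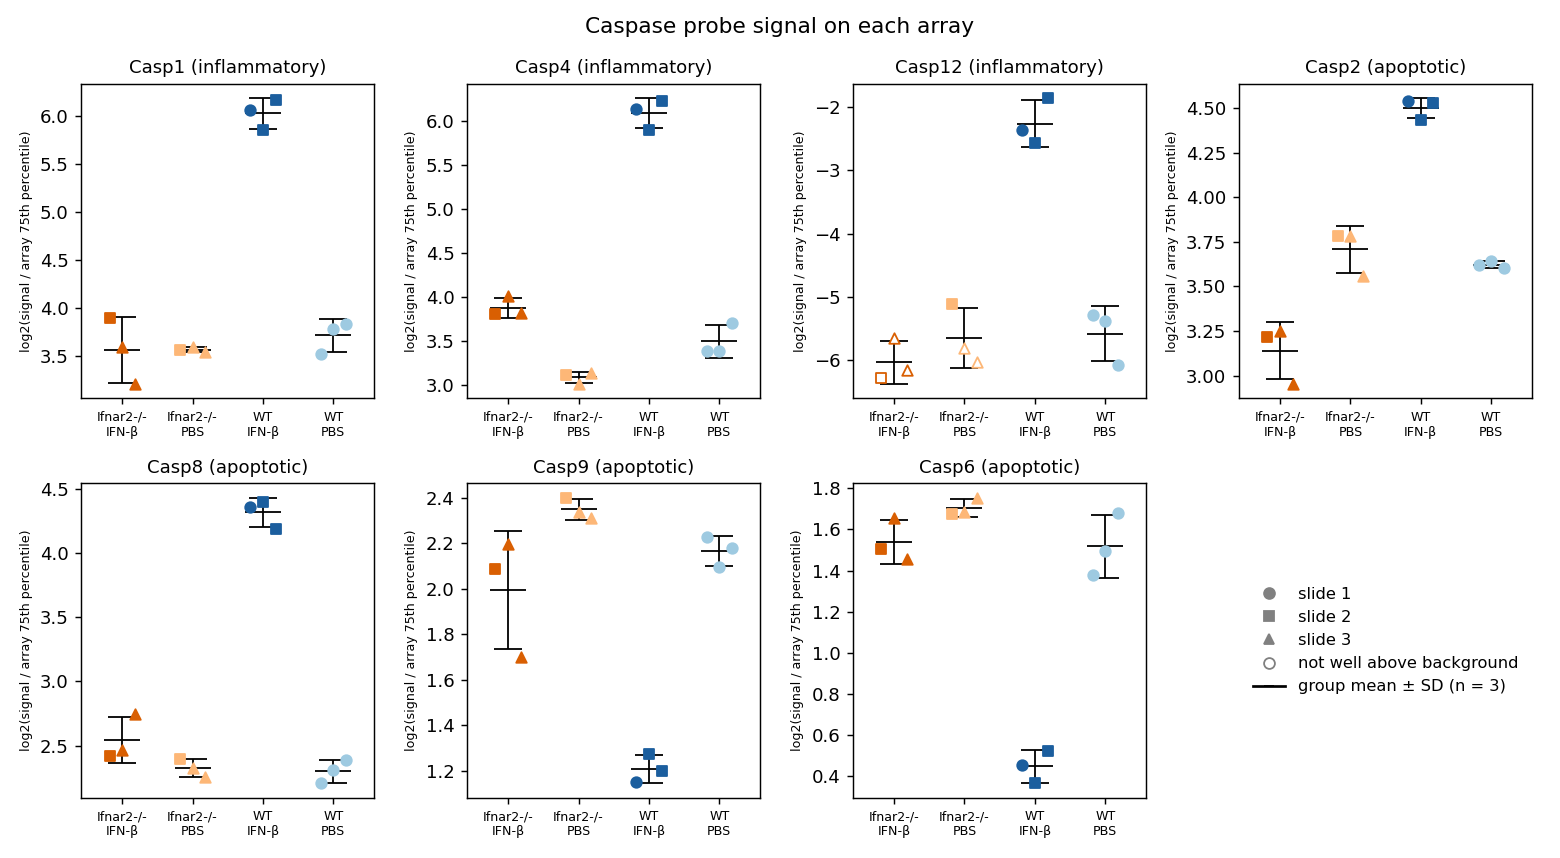
Signal of the 7 caspase probes on each of the 12 arrays, as log2 of signal over the array's 75th percentile (vertical axis), for Ifnar2-/- IFN-β, Ifnar2-/- PBS, wild-type (WT) IFN-β and WT PBS groups; bars are the mean ± SD of 3 arrays, marker shapes are slides and open markers were not well above background. The WT IFN-β arrays stand apart from WT PBS for each gene, above it for Casp1, Casp4, Casp12, Casp2 and Casp8 and below it for Casp9 and Casp6.

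Casp8 encodes the initiator that death receptors recruit through Fadd, and it also restrains necroptosis. Its signal was 4534, 5250.4 and 6499 in Ifnar2-/- cells given IFN-β, against 4024, 4476 and 4335 in Ifnar2-/- cells given PBS. After IFN-β, wild-type cells gave 14929, 15747 and 11995, against 3463, 3890.1 and 4438 after PBS. The wild-type IFN-β arrays were well clear of every other array. Casp8 changed by 0.22 ± 0.12 in Ifnar2-/- cells, which did not pass the test (adjusted p = 0.366, 95% interval -0.05 to 0.48), and rose by 2.02 ± 0.12 in wild-type cells (adjusted p = 6.37e-07), a 4.04-fold rise. Between the genotypes the responses differed by -1.80 ± 0.17 (adjusted p = 5.18e-05). Ifnar2-/- IFN-β arrays lay above both PBS groups on the scaled values, and the PBS groups overlapped with each other.

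Casp9 encodes the initiator that Apaf1 and cytochrome c activate on the apoptosome. Its signal was 3598, 4363 and 3144 on Ifnar2-/- IFN-β arrays, against 4030.4, 4518 and 4504 on Ifnar2-/- PBS arrays. Wild-type arrays read 1612, 1805 and 1515 after IFN-β, against 3512, 3353 and 3844 after PBS. Here the wild-type IFN-β arrays were the lowest of the 12. The log2 fold change was -0.36 ± 0.13 in Ifnar2-/- cells, short of the threshold (adjusted p = 0.195), and -0.96 ± 0.13 in wild-type cells (adjusted p = 0.000217), where the gene was 1.94-fold lower after IFN-β. The difference between the responses, 0.60 ± 0.18, passed narrowly (adjusted p = 0.0457) and was lost under 16 of 24 alternatives, among them the replicate block (adjusted p = 0.0629), slide as a fixed block (adjusted p = 0.126) and leaving out any single array other than the Ifnar2-/- IFN-β array 3.

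Casp2 encodes an initiator that can be activated on the PIDDosome, a platform of Pidd1 and Cradd. Its signal was 7881, 9067 and 7499.97 in Ifnar2-/- cells with IFN-β, against 10515, 12312 and 10699 in Ifnar2-/- cells with PBS. In wild-type cells the arrays read 16846, 16106 and 15212 after IFN-β, against 9223, 9794 and 10309.5 after PBS. Casp2 thus had non-overlapping groups in both genotypes, in opposite directions. It fell by 0.57 on the log2 scale in Ifnar2-/- cells (SE 0.11, adjusted p = 0.0459), and it rose by 0.88 ± 0.11 in wild-type cells (adjusted p = 0.000156), which is 1.84-fold. The responses of the genotypes differed by -1.45 ± 0.16 (adjusted p = 0.000152), which passed under all 24 alternatives tried for it. The decrease in Ifnar2-/- cells was -0.57 within slide 2 and -0.57 within slide 3, yet its adjusted p missed the threshold under 20 of 25 alternatives, among them leaving out any single array. It was -0.57 with the replicate block (adjusted p = 0.069) and with slide as a random block (adjusted p = 0.0507), and -0.48 without the 2 arrays of highest neutrophil marker signal (adjusted p = 0.139). On the scaled values both PBS groups overlapped, with wild-type IFN-β above them and Ifnar2-/- IFN-β below them.

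Casp6 encodes an executioner that cuts nuclear lamins. Its signal was 2405, 3007 and 2655 in the Ifnar2-/- IFN-β group, against 2443, 2869 and 3067 in the Ifnar2-/- PBS group. The wild-type groups gave 997, 961 and 947 after IFN-β, against 1955, 2211 and 2719 after PBS. Only wild-type cells given IFN-β were low. Casp6 changed by -0.17 ± 0.11 in Ifnar2-/- cells (adjusted p = 0.463), which did not pass, and by -1.07 ± 0.11 in wild-type cells (adjusted p = 3.47e-05), a 2.10-fold lower signal. The difference between the responses was 0.90 ± 0.16 (adjusted p = 0.00269). That difference kept its size without the 4 arrays of slide 3, at 0.90, but missed the threshold there (adjusted p = 0.103).

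**Figure D2:**
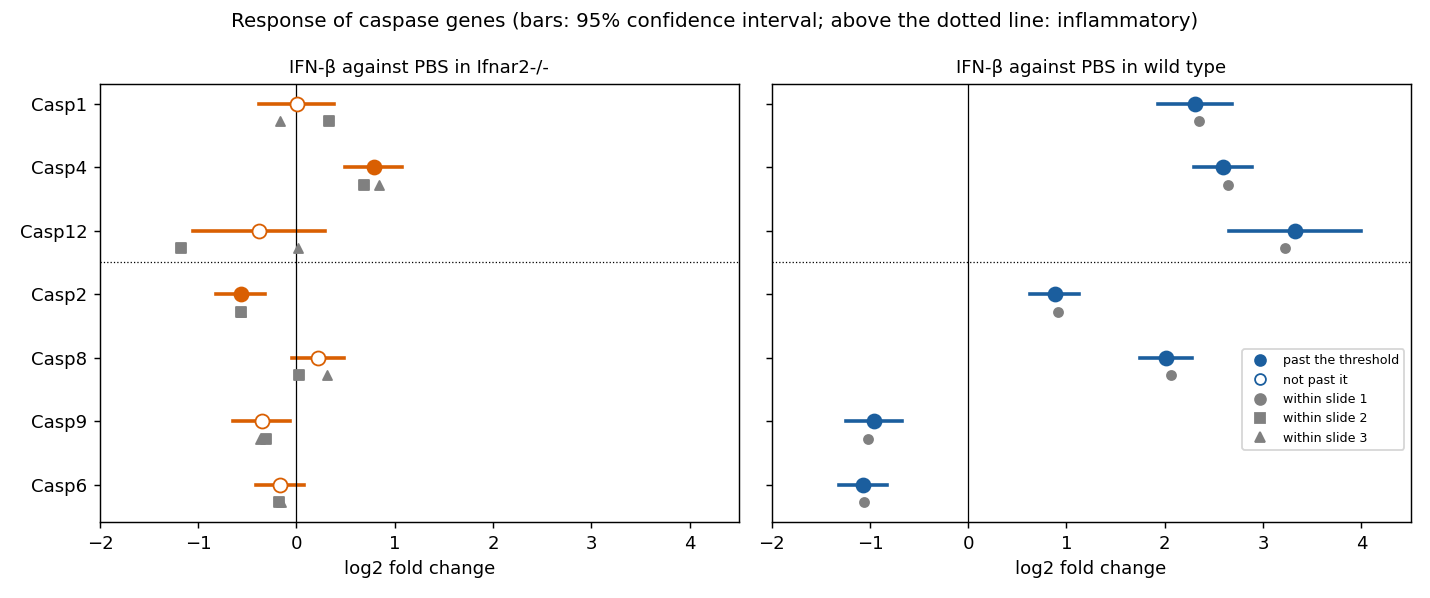
Log2 fold change of each caspase gene after IFN-β against PBS (horizontal axis) in Ifnar2-/- cells (left) and wild-type cells (right); circles are the fit with 95% intervals, filled where the adjusted p was under 0.05, and small grey markers are differences within 1 slide. Wild-type values run from -1.07 for Casp6 to 3.32 for Casp12, and Ifnar2-/- values from -0.57 for Casp2 to 0.79 for Casp4.

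In wild-type cells the inflammatory genes all rose, while the apoptotic genes moved both ways. Of the 3 inflammatory genes 1 rose and 2 did not pass in Ifnar2-/- cells, while 3 of 3 rose in wild-type cells. Of the 4 apoptotic genes 1 fell and 3 did not pass in Ifnar2-/- cells, while 2 rose and 2 fell in wild-type cells. The median log2 fold change of the inflammatory genes was 0.00 in Ifnar2-/- cells and 2.59 in wild-type cells. For the apoptotic genes it was -0.26 in Ifnar2-/- cells and -0.04 in wild-type cells. The median over all genes tested was -0.04 in Ifnar2-/- cells and -0.05 in wild-type cells. The apoptotic median in wild-type cells stands for no single gene: Casp8 rose by 2.02, beside 2.31 for Casp1, and the 2 genes that fell were the apoptosome initiator Casp9 and the executioner Casp6. These are descriptions of 3 and 4 genes, and no test was made between the classes.

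After PBS, 0 of 7 caspase genes passed the limma test between Ifnar2-/- and wild-type cells, against 4.83% of all genes (2.8% higher, 2.04% lower), and 1 had an unadjusted p under 0.05. That gene was Casp4, at -0.41 ± 0.13 (adjusted p = 0.121), whose Ifnar2-/- arrays all lay below the wild-type arrays on the scaled values. Casp9 also had groups that did not overlap, at 0.18 ± 0.13 (adjusted p = 0.458). Over all genes 29.1% had groups that did not overlap in this comparison. No slide held PBS arrays of both genotypes, so genotype and slide cannot be told apart in this comparison. With slide as a fixed block, the 883 genes behind the share of 4.83% became 31. The 95% intervals leave room for differences of some size: -0.53 to 0.23 for Casp1, -0.24 to 0.29 for Casp8 and -0.74 to 0.61 for Casp12.

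Slide and group were partly tied together, and slide and genotype wholly so after PBS. Slide 1 held the wild-type PBS arrays and 1 wild-type IFN-β array, slide 2 held 2 wild-type IFN-β arrays and 1 array of each Ifnar2-/- group, and slide 3 held the other 4 Ifnar2-/- arrays. Within slide 1 the wild-type differences were 2.34 for Casp1, 2.64 for Casp4, 3.23 for Casp12, 2.06 for Casp8, -1.02 for Casp9, 0.92 for Casp2 and -1.06 for Casp6, each from 1 IFN-β array. The 7 of 7 directions there were those of the full fit. Within slide 2, where both genotypes were present after IFN-β, the Ifnar2-/- array minus the mean of the wild-type arrays was -2.11 for Casp1, -2.26 for Casp4, -1.87 for Casp8 and -1.26 for Casp2. For Casp9 and Casp6 it was 0.85 and 1.06.

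Cell makeup was not measured, and in bulk samples fewer cells of a type and less RNA per cell cannot be told apart. Of the monocyte markers, 4 of 6 rose after IFN-β in wild-type cells. The other 2, named after their values were seen, did not pass the limma test: Ccr2 at 0.33 (adjusted p = 0.268) and F13a1 at -0.52 (adjusted p = 0.162). The summed signal of the 6, in multiples of the array's 75th percentile, was 370 to 430 in wild-type cells given IFN-β. It was 123 to 179 in wild-type cells given PBS. Ly6c1 and Plac8 were the brightest of the 6 in wild-type cells given IFN-β, each with a mean of 7.44 on the scaled log2 values. Among Ifnar2-/- arrays 0 of 6 passed and the sums were 146 to 164 after IFN-β, against 154 to 174 after PBS. Markers of resident large peritoneal macrophages, of which 2 of 8 rose and 3 fell in wild-type cells, summed to 400 to 454 there after IFN-β, against 328 to 490 after PBS. Of the T and NK cell markers, 1 of 8 rose in wild-type cells, Gzma at 1.98 (adjusted p = 0.00269), and 5 fell. The 5 that fell were Thy1, Cd3g, Cd3d, Cd8a and Klrb1c. The 8 markers summed to 3.82 to 4.298 in wild-type cells after IFN-β, against 5.21 to 5.95 after PBS. Neutrophil markers summed to 19.2 to 197 in Ifnar2-/- cells given IFN-β, against 10.3 to 15.4 in Ifnar2-/- cells given PBS, and 0 of 7 passed. The corresponding wild-type sums were 15.4 to 22.1 after IFN-β, against 9.27 to 107 after PBS, and 1 of 7 fell. In other lists, 3 of 8 B cell, 2 of 6 mast cell and 4 of 7 mesothelial and stromal markers fell in wild-type cells. There 1 of 5 dendritic cell markers rose and 3 fell, and 0 of 3 eosinophil markers passed the test. The shares of all genes there were 17.5% higher and 21.9% lower. Of the B cell falls, Ebf1 and Cr2 rest on their brightest probes. Their other probes read -0.32 (adjusted p = 0.495) and -0.73 (adjusted p = 0.169). The other probe of the mast cell marker Mcpt4 read -0.45 (adjusted p = 0.0953). Further probes of the macrophage marker Gata6 read -0.17 (adjusted p = 0.432) and -1.06 (adjusted p = 0.00272). Further probes of Thy1, Rarb, Krt8 and Ly6c1 passed in the same direction. For Ifnar2-/- cells 0 of 58 markers in the 9 lists passed the limma test, and 9 had an unadjusted p under 0.05, 3 of them of neutrophils, 2 of dendritic cells and 4 mesothelial or stromal. The part of these shifts in the caspase values was not tested. The defining markers of macrophages and B cells were well above background on all 12 arrays, and so were the eosinophil markers Siglecf and Ccr3, while Prg2 was on 8 arrays and Epx on 0.

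**Figure D3:**
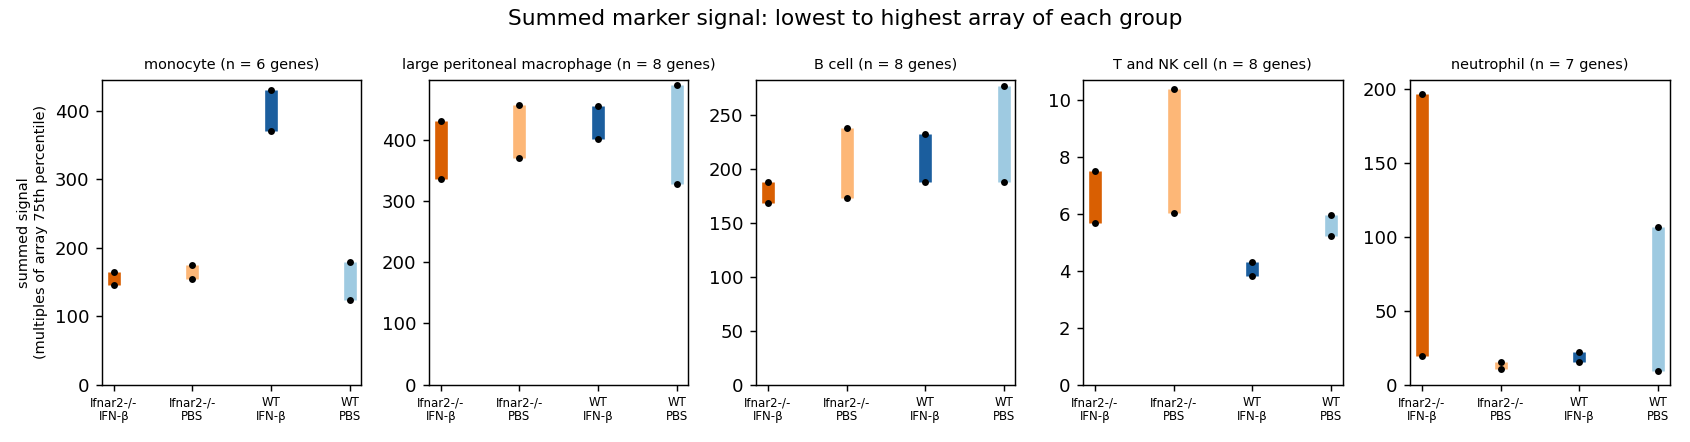
Summed signal of cell type markers in each group, in multiples of the array's 75th percentile (vertical axis from 0), with bars from the lowest to the highest of 3 arrays in the order Ifnar2-/- IFN-β, Ifnar2-/- PBS, wild-type (WT) IFN-β, WT PBS. Monocyte sums of 370 to 430 in WT IFN-β cells lie above all other groups, and neutrophil sums reach 197 on 1 Ifnar2-/- IFN-β array and 107 on 1 WT PBS array.

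The genes around the caspases were counted in 8 lists of 76 genes, 69 of them tested. After IFN-β, 3 rose and 0 fell in Ifnar2-/- cells. Of these lists 6, with 49 tested genes, had 0 past the limma test in Ifnar2-/- cells. There 12 of the 49 had an unadjusted p under 0.05, 8 of them in the BCL-2 family, with no share of all genes to compare. In wild-type cells 29 rose and 9 fell, 55.1% of those tested beside the 39.4% of all genes. Among the named genes, Gsdme and Bmf are counted as falls and Birc2 as a rise from their brightest probes, which their other probes did not match. A difference between the responses passed for 19 of 69, 5 higher and 14 lower, which is 27.5% beside 17.9% of all genes.

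Upstream of Casp1, the inflammasome sensors and their adaptor had 0 of 11 genes past the test in Ifnar2-/- cells, and 5 higher and 1 lower in wild-type cells. Mefv, the gene of the sensor pyrin, rose by 1.90 ± 0.48 in wild-type cells. Aim2, a sensor of cytosolic DNA, rose by 1.47 ± 0.37, a size that was 0.89 with normexp. Pycard, the adaptor that links sensors to Casp1, rose by 0.82 ± 0.22, a call lost under 4 of 25 alternatives, among them quantile normalization (adjusted p = 0.0695), slide as a fixed block (adjusted p = 0.0604) and leaving out replicate 1 of either wild-type group. Naip1, a sensor of the bacterial secretion needle, fell by 2.29 on the log2 scale (SE 0.22). Naip1 belongs to a family of near-identical copies, which its probe may not tell apart. After PBS Naip1 was higher in Ifnar2-/- than in wild-type cells by 1.27 ± 0.22 (adjusted p = 0.00757), a difference that also lay between slides. For Mefv the log2 fold change in Ifnar2-/- cells was 2.05 ± 0.48, short of the threshold (adjusted p = 0.0743), and the difference between the responses was 0.15 ± 0.68 (adjusted p = 0.925).

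Among the substrates and effectors of pyroptosis, 2 of 7 rose in Ifnar2-/- cells, and 3 rose in wild-type cells, where 1 more, Gsdme, passed on a probe that its other probes did not match. Il18, a cytokine precursor that Casp1 cuts, changed by -0.21 ± 0.16 in Ifnar2-/- cells and rose by 2.79 ± 0.16 in wild-type cells. Gsdmd, the gene of gasdermin D, whose cut fragment forms membrane pores, changed by 0.06 ± 0.13 in Ifnar2-/- cells and rose by 1.34 ± 0.13 in wild-type cells. Il1b, another cytokine precursor that Casp1 cuts, had another pattern. It rose by 3.75 ± 0.65 in Ifnar2-/- cells (adjusted p = 0.0255) and changed by 0.69 ± 0.65 in wild-type cells (adjusted p = 0.445). The difference between its responses was 3.05 ± 0.92 (adjusted p = 0.043), a call that was not refitted under the alternatives. Neutrophil marker sums reached their highest value, 197, in the same Ifnar2-/- IFN-β group, and their part in the Il1b value was not tested. Il1a rose in both genotypes, by 1.76 ± 0.28 in Ifnar2-/- cells and by 2.10 ± 0.28 in wild-type cells, and after PBS it was higher in Ifnar2-/- than in wild-type cells by 3.38 ± 0.28. Both values set against wild-type PBS cells rest on a dim group, well above background on 2 of 3 arrays. With normexp the wild-type rise was 0.67. The difference after PBS also lay between slides, so genotype and slide cannot be told apart there. The calls in Ifnar2-/- cells were lost under 10 of 25 alternatives for Il1b, among them the replicate block (adjusted p = 0.0525), and under 9 of 24 for Il1a. Gsdme, the gene of another gasdermin, read -2.03 ± 0.23 in wild-type cells on its brightest probe, but its other 3 probes read 0.06 to 0.30, so the probes of Gsdme disagree and no direction is given.

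The death receptor pathway above Casp8 had 1 of 13 genes higher in Ifnar2-/- cells, and 9 higher and 0 lower in wild-type cells. Tnfsf10, the death ligand TRAIL, changed by -1.04 ± 0.24 in Ifnar2-/- cells (adjusted p = 0.0733) and rose by 5.90 ± 0.24 in wild-type cells (adjusted p = 4.52e-08). Tnf rose in both, by 2.25 ± 0.31 in Ifnar2-/- cells and by 2.48 ± 0.31 in wild-type cells, with a difference between the responses of -0.24 ± 0.43 (adjusted p = 0.788). Fasl, the ligand of Fas, rose by 1.88 ± 0.28 in wild-type cells, but by 0.96 with normexp and by 0.93 on its other probe. Tnfrsf1b, a receptor of Tnf, rose by 1.26 ± 0.20, and its other probe read 0.40 (adjusted p = 0.145).

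Around Casp9, the BCL-2 family, which controls the release of cytochrome c, had 0 of 14 genes past the test in Ifnar2-/- cells, and 4 higher and 3 lower in wild-type cells, with Bmf among the 3 on 1 of its 2 probes. Bid, which Casp8 cuts to link death receptors to mitochondria, rose by 1.23 ± 0.18 in wild-type cells. The survival gene Bcl2 fell by 1.72 there (SE 0.28), and its other 2 probes read -0.73 and -0.98. Bcl2a1b, a survival gene of a family of near-identical copies, rose by 1.18 ± 0.14. Bmf read -2.81 ± 0.40 on its brightest probe and 0.41 ± 0.39 on the other, so its direction is not settled. In the apoptosome and mitochondrial release list 0 of 6 passed in Ifnar2-/- cells, and 2 rose and 1 fell in wild-type cells. Cycs, the gene of cytochrome c, rose by 1.94 ± 0.15 in wild-type cells on a probe that 2 further probes matched, at 1.94 and 1.82. Endog, a mitochondrial nuclease, fell by 0.64 (SE 0.11). Htra2, a mitochondrial protease, rose by 0.46 ± 0.14 but missed the threshold under 4 of 25 alternatives. Apaf1, the scaffold that activates Casp9 and a gene chosen here after its values were seen, read -0.10 ± 0.19 in Ifnar2-/- cells and 0.27 ± 0.19 in wild-type cells, and passed in neither.

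For Casp2, the 3 genes of the PIDDosome list had 0 past the limma test in either genotype, and 0 with an unadjusted p under 0.05. They were chosen for naming after their values were seen: in wild-type cells Pidd1 read 0.39 ± 0.28, Cradd -0.05 ± 0.23 and Mdm2 0.19 ± 0.13. The caspase blockers, inhibitor of apoptosis proteins and serpins, had 0 of 7 past the test in Ifnar2-/- cells, and 4 higher and 1 lower in wild-type cells. Serpinb9, which blocks granzyme B, rose by 1.09 ± 0.14, and Birc6 by 0.71 ± 0.13. The other probe of Serpinb9 read 0.69 ± 0.61 (adjusted p = 0.408). With the mean of all kept probes its call was lost (0.89, adjusted p = 0.0739). Serpinb1a, which blocks neutrophil proteases, fell by 1.13 (SE 0.23), a call lost with slide as a fixed block (adjusted p = 0.0755). Birc2 rose by 0.82 ± 0.12 on its brightest probe and read -0.12 ± 0.16 on the other. In the list for the execution phase of apoptosis, 0 of 8 genes passed in Ifnar2-/- cells, and 2 rose and 2 fell in wild-type cells. Xkr8, a lipid scramblase, rose by 0.87 ± 0.17 (0.52 with normexp) and Rock1, a kinase of membrane blebbing, by 0.58 ± 0.14. The Rock1 call was lost with quantile normalization (0.27, adjusted p = 0.124) and with no scaling (0.42, adjusted p = 0.0633). Its other probes read 0.52 and 0.51 and missed the threshold (adjusted p = 0.0577 and 0.0582). Parp1, a DNA repair enzyme, fell by 0.71 (SE 0.18), a call lost with slide as a fixed block (adjusted p = 0.0880). Dffb, the nuclease that fragments DNA, fell by 0.39 (SE 0.11), a call lost under 4 of 25 alternatives.

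**Figure D4:**
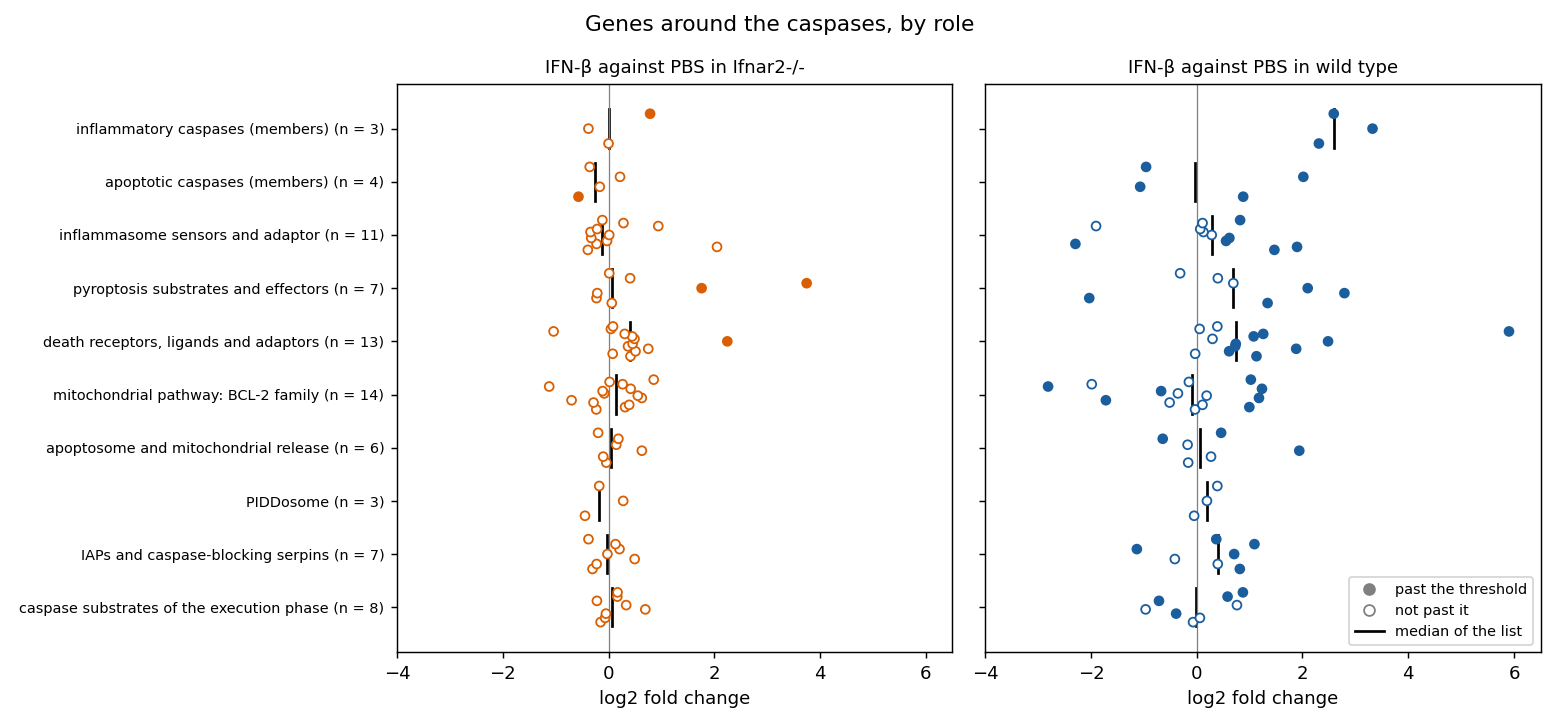
Log2 fold change after IFN-β against PBS (horizontal axis) of every tested gene of the caspase classes and of 8 lists around them, in Ifnar2-/- cells (left) and wild-type cells (right); filled points had an adjusted p under 0.05 and black lines are list medians. In Ifnar2-/- cells Casp4, Casp2, Il1a, Il1b and Tnf are the filled points, and in wild-type cells Tnfsf10 at 5.90 is the farthest to the right.

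Genes whose pattern over the 12 arrays was most like a caspase were found by the root mean square difference of log2 values after each gene's mean was subtracted. For Casp1 they were Tdrd7, Tor1aip1 and Aida, at 0.14 to 0.17, where the median over all tested genes was 1.15. For Casp4 they were Slfn2, Tor1aip2 and Myd88, at 0.18 to 0.22, and Slfn2, like Casp4, had a fold change of 0.89 in Ifnar2-/- cells and 2.68 in wild-type cells. Lgals8, at 0.11, and Mafk, at 0.13, were among the 3 nearest to Casp8. The nearest to Casp2 was Birc2 on its brightest probe, at 0.11, with -0.30 in Ifnar2-/- cells and 0.82 in wild-type cells. The other Birc2 probe read -0.12 in wild-type cells and did not match. Next nearest to Casp2 were Nub1 and BC030440. For Casp12, near background on most arrays, the distances were larger, 0.27 to 0.34, and Ifi205 was among the 3 nearest. Wdr47, at 0.10, was among the 3 nearest to Casp6. Casp9 varied too little over the arrays for this measure, with an SD of 0.47 against the minimum of 0.5. Likeness over 12 arrays in 4 groups mostly records the group means.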

How the data were processed

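Total RNA of peritoneal exudate cells was labelled with Cy3 and hybridised, 1 sample to an array, per the labels' protocols. The deposited scanner files were made with Agilent Feature Extraction 9.5.3.1, per the file headers and the submitters' processing notes, and name the genome build mm7. Their processed signal, deposited on a linear scale, is an intensity from which the authors' software had already subtracted a background; it was not scaled between arrays. The values deposited for the series as a whole were these same intensities (0 of 45018 rows differed) and were not analysed again. Control spots and spots marked as outliers were left out. Each array was divided by the 75th percentile of its processed signal and put on the log2 scale. Kept were probes with a value on at least 6 arrays that exceeded background well on every array of some group, which left 27715 probes. The brightest probe of a gene stood for it, leaving 18274 genes. RefSeq names of GRCm38.p6 were matched to 22972 probes by accession, 6645 by symbol, 3105 by an older symbol, while 8452 kept the files' name.

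A limma 3.58.1 fit of 4 group means took all 12 arrays under R 4.3.3 (files were read with the data.table package, 1.17.8), with 8 residual and 2.39 prior degrees of freedom. Tests were two-sided with Benjamini-Hochberg adjustment within each comparison over all 18274 genes, and an adjusted p under 0.05 passed. Per the design text, samples came from different mice and independent experiments, so the spread includes that between animals. The number of arrays, 3 a group, limits the precision. The fit was tested on simulated data.

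The members, lists, tests and naming rule were chosen with earlier results of these data known. Some genes of the lists are not reported here. Named were the 7 caspase genes, of each list at most the 4 largest changes past the threshold in either genotype's comparison, and the 3 genes most like each caspase gene whose SD over the arrays was at least 0.5. The same replicate numbers occur in all groups. Of 18 pairs of same-numbered arrays, 5 correlated above 0.1 in their deviations from the group means (-0.12 to 0.51). Between the Ifnar2-/- groups all 3 pairs did (0.10 to 0.51). In both of these groups replicate 1 was on slide 2, and replicates 2 and 3 were on slide 3. Pairing of samples and a shared slide therefore cannot be told apart there. Between the wild-type groups 0 of 3 pairs correlated above 0.1 (-0.12 to 0.03). The fit with the replicate number as a block is given beside each call it changed among those refitted. Refitted were the caspase genes in every comparison and the named list genes for IFN-β against PBS within a genotype. Marker calls were not refitted, nor were the list genes' differences between the responses or after PBS. Alternatives changed the background correction, scaling, filter, outliers, probe rule, slide or replicate block and the arrays in the fit.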

Additional observations from a re-analysis of the deposited data

Results flagged for a closer look

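The response to IFN-β differed between the genotypes by a test of the difference itself for each of the 7 caspase genes as analysed. For Casp9 that call was lost under 16 of 24 alternatives, among them the replicate block and slide as a fixed block. As Ifnar2-/- minus wild type on the log2 scale, it was -2.31 for Casp1, -1.81 for Casp4, -3.70 for Casp12, -1.45 for Casp2 and -1.80 for Casp8. For the genes that fell in wild-type cells the sign was the opposite, with 0.60 for Casp9 and 0.90 for Casp6. For Casp12 the Ifnar2-/- IFN-β side was not well above background, so -3.70 is a fitted value and no measured size, and it was -1.53 with normexp. The gene whose 2 responses had opposite signs and both passed the test was Casp2, with -0.57 in Ifnar2-/- cells and 0.88 in wild-type cells. Its call in Ifnar2-/- cells (adjusted p = 0.0459) was lost under 20 of 25 alternatives, among them the replicate block (adjusted p = 0.069) and leaving out any single array, with values from -0.64 to -0.46.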

How the results depend on the processing

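In wild-type cells the 174 values of the caspase genes under 25 alternatives all kept their direction and passed the test, and after PBS all 174 stayed short of it. In Ifnar2-/- cells 145 of 174 kept their call and 29 lost it: Casp2 under 20 of 25 alternatives and Casp4 under 9. Of the differences between the responses 150 of 167 kept their call, Casp9 lost it under 16 of 24 and Casp6 under 1. The count of caspase genes past the test in Ifnar2-/- cells, 2 as analysed, was 1 with no scaling between arrays, with slide as a random block and with the replicate block, each time Casp4. It was 0 with no filter on dim probes, with slide as a fixed block, in a fit of the compared groups alone, without the 4 arrays of slide 3, and without the 2 arrays of highest neutrophil marker signal, which were the Ifnar2-/- IFN-β array 3 and the wild-type PBS array 1. Leaving out 1 array at a time gave 0 to 1 there, 7 in wild type, 6 to 7 for the difference and 0 after PBS; the 4 arrays whose loss gave 0 were the Ifnar2-/- PBS arrays 1, 2 and 3 and the Ifnar2-/- IFN-β array 2. The alternatives without slide 3 and without the neutrophil-high arrays were chosen after seeing the data, and each fit with fewer arrays has fewer degrees of freedom. Besides Casp2 in Ifnar2-/- cells, the replicate block changed 1 call of the caspase genes, the difference of Casp9 (adjusted p = 0.0629). Counts over all genes moved by more than 1.5 times as follows. In Ifnar2-/- cells, 214 became 335 with normexp, 68 with no filter, 118 with slide as a fixed block, 140 with the replicate block, 13 with the compared groups alone, 94 without slide 3, 123 without the neutrophil-high arrays and 32 to 300 without single arrays. With slide as a fixed block, 7194 became 4424 in wild type, 3262 became 1921 for the difference and 883 became 31 after PBS. Without slide 3 the difference gave 1283 and PBS 252, and without single arrays PBS gave 432 to 1283. Gsdme in wild type read 0.12 without slide 3 (-2.03 as analysed), where another of its probes was the brightest. The inflammatory minus the apoptotic median in wild type was 2.63 as analysed and 2.26 with normexp. Casp12 was not measurable with only probes well above background on all 12 arrays. With no scaling the median of all genes in wild type was -0.21 against -0.05. Of the named genes of the lists, 655 of 673 values in wild type and 53 of 74 in Ifnar2-/- cells kept their call; the cause of these losses was not tested. Signal over background limits Casp12 alone among the 7.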
